A study of Mus musculus with 16 samples.

Results

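The genes described here are 9 that encode secreted or signature proteins of club cells, the secretory cells of the conducting airways, out of 20173 named genes measured in the lungs of 3-day-old mouse pups. They were picked by name, through the gene symbols of the array annotation, with earlier results of these data known: the secretoglobins Scgb1a1, Scgb3a1, Scgb3a2 and Scgb1c1, the cytochrome P450 Cyp2f2, the defence proteins Bpifa1 (listed by the platform under its older name Plunc) and Reg3g, the mucin Muc5b and the mucin-folding enzyme Agr2. All 9 passed the filter on low values. The arrays fell into 4 groups of 4: Fgf10+/- pups in hyperoxia, wild-type pups in hyperoxia, Fgf10+/- pups in normoxia and wild-type pups in normoxia. Hyperoxia was 85% oxygen from postnatal day 0 to day 3 in a chamber, and every group was sampled at day 3. Fgf10+/- pups have a single working copy of Fgf10, whose product is a growth factor that the lung mesenchyme secretes. Each sample was total RNA of a lung homogenate on a one-colour Agilent array, so that fewer cells of a type and less RNA per cell cannot be told apart. The labels do not say whether the pups of a group came from separate litters or were pooled, and p-values therefore measure only the spread between these samples.

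Club cells line the bronchioles between ciliated cells and coat the airway with small secretoglobins, antimicrobial proteins and mucin. They detoxify inhaled chemicals through cytochrome P450 enzymes, and after injury they divide and can replace ciliated cells. Mucous cells, sparse in the healthy mouse airway, share part of this secretory programme, including Muc5b, Agr2 and Scgb3a1, and the upper airway epithelium makes Bpifa1 as well, so several of these genes do not mark 1 cell type.

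The DNA just upstream of 4 of these genes is shown first, because Scgb3a1, Bpifa1 and Reg3g had the largest rises in hyperoxia among the 9 and Scgb1c1 was the one called between the genotypes. The RefSeq promoter table (GRCm38.p6) held 6 of the 9 genes, and each sequence is the 250 bases before the annotated start, 5′ to 3′ on the strand of the gene. Capitals mark matches to 6 short motifs searched on both strands: the TATA box (TATAAA), an AP-1 motif (TGANTCA), a C/EBP motif (TTGNNCAA), a STAT motif (TTCNNNGAA), an NKX2-1 motif (CTCAAG) and a fork-head motif (TNTTTAC).
Scgb3a1, chr11:49663345-49663594, plus strand: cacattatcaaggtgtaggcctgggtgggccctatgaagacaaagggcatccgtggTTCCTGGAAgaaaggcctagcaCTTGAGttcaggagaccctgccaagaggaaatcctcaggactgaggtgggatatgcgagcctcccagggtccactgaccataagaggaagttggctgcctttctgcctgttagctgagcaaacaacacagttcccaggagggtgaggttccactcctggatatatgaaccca
Bpifa1, chr2:154142630-154142879, plus strand: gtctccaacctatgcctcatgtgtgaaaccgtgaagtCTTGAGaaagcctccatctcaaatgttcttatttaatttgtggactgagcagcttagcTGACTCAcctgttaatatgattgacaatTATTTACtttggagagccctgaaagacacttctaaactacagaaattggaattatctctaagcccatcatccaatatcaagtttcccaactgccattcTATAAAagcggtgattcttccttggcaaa
Reg3g, chr6:78468875-78469124, minus strand: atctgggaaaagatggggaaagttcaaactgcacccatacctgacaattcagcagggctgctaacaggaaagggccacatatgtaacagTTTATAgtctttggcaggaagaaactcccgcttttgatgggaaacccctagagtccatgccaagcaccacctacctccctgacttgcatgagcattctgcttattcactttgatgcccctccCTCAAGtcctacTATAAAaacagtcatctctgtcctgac
Scgb1c1, chr7:140845315-140845564, plus strand: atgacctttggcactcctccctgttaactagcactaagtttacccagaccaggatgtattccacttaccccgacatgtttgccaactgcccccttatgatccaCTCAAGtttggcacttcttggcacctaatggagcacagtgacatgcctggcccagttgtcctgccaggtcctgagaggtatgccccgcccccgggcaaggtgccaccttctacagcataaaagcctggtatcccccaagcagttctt
All 4 hold the NKX2-1 letters, on the opposite strand in Scgb3a1 and Bpifa1, which 13.3% of 32851 promoter windows of this length also hold. Bpifa1 and Reg3g have TATAAA close to the start, at 29 to 24 and at 27 to 22 bases before it, and 12.4% of all windows hold those letters somewhere. Reg3g has a further TATA match on the opposite strand. Bpifa1 also holds the AP-1 letters (6.75% of all windows) and the fork-head letters (10.9%), and Scgb3a1 holds the STAT letters (7.02%). The C/EBP letters (5.65%) occur in none of the 4, and the windows of Cyp2f2 and Agr2 hold none of the 6 motifs. None of these matches overlaps another, and a match describes letters in a window and not a site in use.

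Replicate arrays of a group correlated with r between 0.974 and 0.983 over all tested genes, and their number limits the precision. For Fgf10 itself no measurable decrease was seen between genotypes: Fgf10+/- minus wild type was -0.21 (log2, SE 0.20, limma adjusted p = 0.835) in hyperoxia and 0.48 (SE 0.20, adjusted p = 0.334) in normoxia. Where the feature lies relative to the inactivated part was not stated, so genotypes are named as the labels name them. Replicate 4 of the wild-type normoxia group stood apart in markers of cartilage, skeletal muscle and brown fat, whose source was not tested. The mean of 6 airway cartilage genes was 8.31 there, against 4.23 to 4.56 in the rest of its group, and the mean of 10 skeletal muscle genes was 8.99, against 4.94 to 5.42. Brown fat genes averaged 6.52, against 4.61 to 4.91. Each member value below was therefore also computed without that array, and it is given where it changes a call.

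Hyperoxia raised most of the club cell secretory genes in both genotypes. In Fgf10+/- pups, 6 of the 9 genes rose at a limma adjusted p under 0.05 (Scgb3a1, Scgb3a2, Scgb1c1, Cyp2f2, Bpifa1 and Reg3g) and 0 fell, while 13% of all genes rose and 10.7% fell. In wild-type pups, 6 of 9 rose (Scgb3a1, Scgb3a2, Cyp2f2, Bpifa1, Reg3g and Muc5b) and 0 fell, while 10.3% of all genes rose and 8.74% fell. The 5 genes called in both were Scgb3a1, Scgb3a2, Cyp2f2, Bpifa1 and Reg3g. The median difference over the 8 genes other than Scgb1a1, which sits at the top of the scale, was 0.92 on the log2 scale in Fgf10+/- pups and 0.99 in wild-type pups, where the median over all tested genes was 0.03 in each. The hyperoxia arrays lay wholly above the normoxia arrays for 6 of the 9 genes in Fgf10+/- pups, as for 13.8% of all genes, and for 6 of 9 in wild-type pups, as for 13.6% of all genes. The normoxia arrays of one genotype are not those of the other, so the 2 comparisons share no array.

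**Figure D1:**
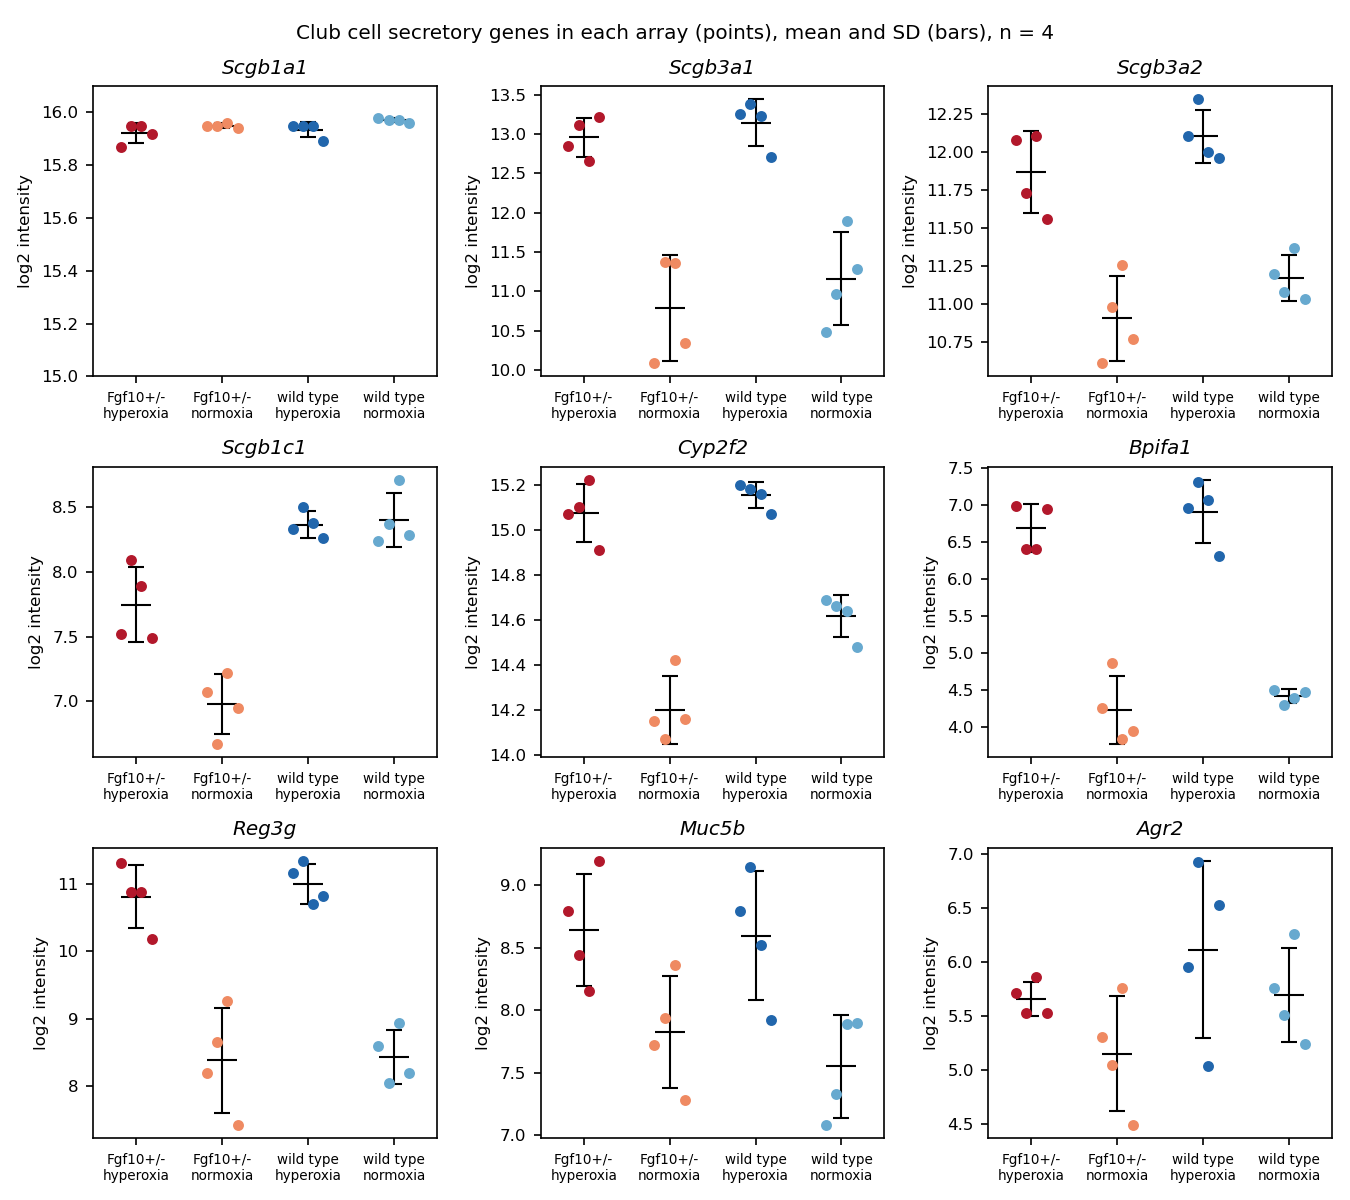
Log2 intensity (vertical axes, each gene on its own scale) of the 9 club cell secretory genes in every array, by group; points are arrays, the wide bar is the group mean and the whiskers are the SD (n = 4). Scgb1a1 lies between 15.87 and 15.98 in all arrays, and the hyperoxia arrays of Scgb3a1, Scgb3a2, Cyp2f2, Bpifa1 and Reg3g lie above the normoxia arrays of the same genotype.

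Secretoglobins are small, disulphide-linked proteins that club cells release into the airway lining. Scgb1a1, also called CC10 or uteroglobin, is the most widely used club cell marker, and its signal was at the top of the scale. Its 10 features lay between 15.71 and 15.98 in every array, where the highest value of the whole table is 15.99 and the scanner scale ends at 16. The signal thus lay at the ceiling of the scale in all 4 groups and no difference can be read from it. It averaged 15.92 ± 0.04 in Fgf10+/- hyperoxia, 15.93 ± 0.03 in wild-type hyperoxia, 15.95 ± 0.01 in Fgf10+/- normoxia and 15.97 ± 0.01 in wild-type normoxia (SD, n = 4 each). This marker and Cyp2f2 were both high in every array, but Scgb1a1 gives no measure of how club cell RNA differed between groups.

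Scgb3a1, a secretoglobin of the larger airways, rose about as far in both genotypes. In Fgf10+/- pups its log2 intensity was 12.85, 13.11, 12.66 and 13.21 in hyperoxia, against 10.09, 11.37, 11.36 and 10.35 in normoxia. In wild-type pups it was 13.26, 13.38, 13.23 and 12.71 in hyperoxia, against 10.49, 10.97, 11.90 and 11.29 in normoxia. All 8 hyperoxia arrays lay above all 8 normoxia arrays, and the normoxia arrays spread more widely than the hyperoxia arrays. The difference was 2.17 in Fgf10+/- pups (4.49-fold, SE 0.32, limma adjusted p = 0.000262) and 1.98 in wild-type pups (3.95-fold, SE 0.32, adjusted p = 0.000729). It ranked 22nd and 18th among the rises of all genes. The array carries 10 features for Scgb3a1, and all 10 were called in each genotype, with differences of 2.03 to 2.17 in Fgf10+/- pups and 1.88 to 2.02 in wild-type pups. They were read on the same arrays and add no replicates.

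**Figure D2:**
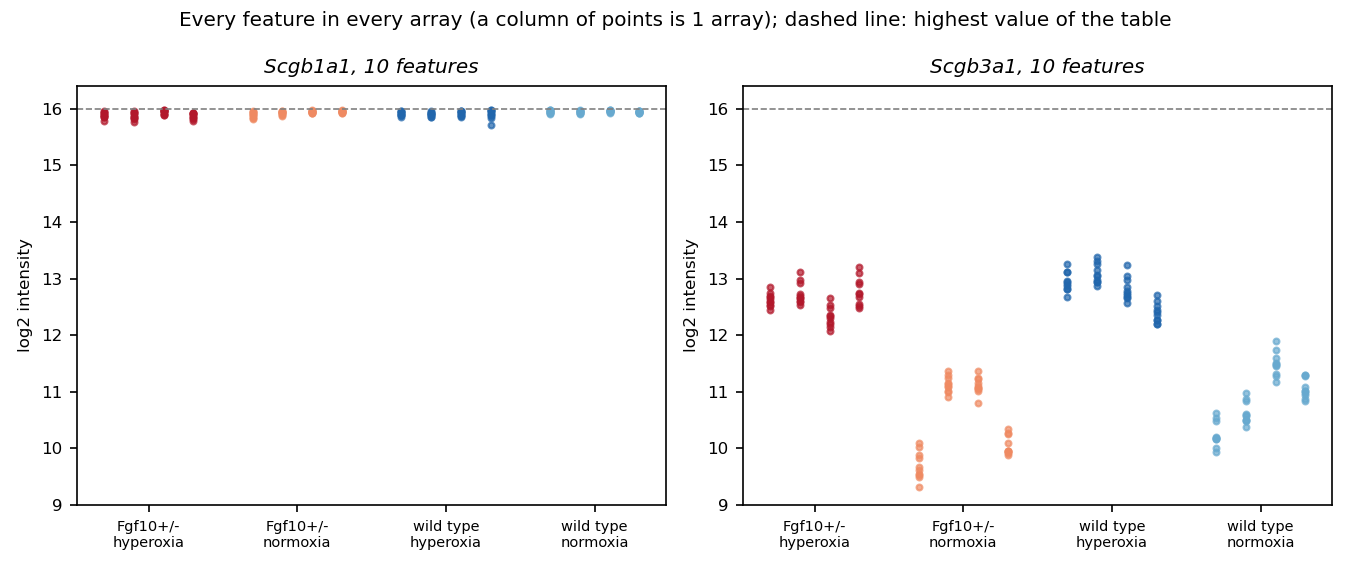
Log2 intensity of each of the 10 features of Scgb1a1 (left) and of Scgb3a1 (right) in every array; each column of points is 1 array and the dashed line marks 15.99, the highest value of the table. The Scgb1a1 features press against that line in all 16 arrays, whereas those of Scgb3a1 move together between 9.31 and 13.38.

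Scgb3a2, a secretoglobin that appears early in the developing bronchioles, also rose in both genotypes. In Fgf10+/- pups it was 12.08, 11.73, 12.11 and 11.56 in hyperoxia, against 10.61, 10.98, 11.26 and 10.77 in normoxia. In wild-type pups it was 12.11, 12.35, 12.0 and 11.96 in hyperoxia, against 11.20, 11.08, 11.37 and 11.03 in normoxia. Again no hyperoxia array fell among the normoxia arrays. The difference was 0.97 in Fgf10+/- pups (1.95-fold, SE 0.16, adjusted p = 0.000576) and 0.94 in wild-type pups (1.91-fold, SE 0.16, adjusted p = 0.00104). A second feature gave 1.05 in Fgf10+/- pups and 0.84 in wild-type pups, called in both. Tested against a minimum change of 1.5-fold, neither difference of Scgb3a2 passed (adjusted p = 0.360 and 0.687).

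Scgb1c1, a secretoglobin best known from the olfactory mucosa, differed from the others. Fgf10+/- pups had values of 7.52, 8.09, 7.89 and 7.49 in hyperoxia, against 7.07, 6.67, 7.22 and 6.95 in normoxia. Wild-type pups had values of 8.33, 8.50, 8.38 and 8.26 in hyperoxia, against 8.24, 8.37, 8.71 and 8.29 in normoxia. Hyperoxia and normoxia separated in Fgf10+/- pups and overlapped in wild-type pups. It rose by 0.77 in Fgf10+/- pups (1.71-fold, SE 0.16, adjusted p = 0.0025), while the difference in wild-type pups was -0.04 (SE 0.16, 95% interval -0.37 to 0.30, adjusted p = 0.917). The rise in Fgf10+/- pups did not pass against a minimum of 1.5-fold (adjusted p = 1.0).

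Cyp2f2, the cytochrome P450 through which mouse club cells turn naphthalene into a toxic product, rose in both genotypes. The Fgf10+/- arrays read 15.07, 15.10, 15.22 and 14.91 in hyperoxia, against 14.15, 14.07, 14.42 and 14.16 in normoxia. The wild-type arrays read 15.20, 15.18, 15.16 and 15.07 in hyperoxia, against 14.69, 14.66, 14.64 and 14.48 in normoxia. The groups did not overlap in either genotype, and the spread within each was small. The difference was 0.88 in Fgf10+/- pups (1.83-fold, SE 0.10, adjusted p = 3.09e-05) and 0.54 in wild-type pups (1.45-fold, SE 0.10, adjusted p = 0.0014). All hyperoxia values lie close to the top of the scale, and against a minimum of 1.5-fold neither call held (adjusted p = 0.155 and 1.0).

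The defence proteins Bpifa1 and Reg3g had the largest differences of the 9 genes. Bpifa1, also called SPLUNC1, is secreted onto the airway surface, where it limits bacteria and regulates the liquid layer. Its log2 intensity in Fgf10+/- pups was 6.98, 6.40, 6.40 and 6.94 in hyperoxia, against 4.26, 4.86, 3.84 and 3.94 in normoxia. That of wild-type pups was 6.96, 7.30, 7.06 and 6.31 in hyperoxia, against 4.50, 4.30, 4.39 and 4.47 in normoxia. Every hyperoxia array was above every normoxia array, with a gap of 1.54 in Fgf10+/- pups and 1.82 in wild-type pups. The difference was 2.46 in Fgf10+/- pups (SE 0.24, adjusted p = 1.15e-05) and 2.49 in wild-type pups (SE 0.24, adjusted p = 1.67e-05). Both normoxia means, 4.22 and 4.41, lie under the array median of 4.50, so no fold is given and the differences hold only for these intensities.

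Reg3g, a C-type lectin that binds the peptidoglycan of Gram-positive bacteria, rose as far. Fgf10+/- pups had values of 11.31, 10.88, 10.88 and 10.18 in hyperoxia, against 8.19, 8.65, 9.27 and 7.42 in normoxia. Wild-type pups had values of 11.17, 11.34, 10.70 and 10.82 in hyperoxia, against 8.59, 8.04, 8.93 and 8.19 in normoxia. The lowest hyperoxia array exceeded the highest normoxia array by 0.91 in Fgf10+/- pups and by 1.78 in wild-type pups. The difference was 2.43 in Fgf10+/- pups (5.39-fold, SE 0.34, adjusted p = 0.000175) and 2.57 in wild-type pups (5.93-fold, SE 0.34, adjusted p = 0.000177). Among the rises of all genes, Reg3g ranked 14th in Fgf10+/- pups and 8th in wild-type pups, while Bpifa1 is given no rank because of its dim normoxia signal. The related lectins Reg3a and Reg3b, from the mucosal defence list below, had group means between 3.25 and 3.89, near the 25th percentile of the arrays (3.69), and neither was called.

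The mucin pair was less clear. Muc5b encodes a gel-forming mucin that mouse club cells make at rest. The Fgf10+/- arrays read 8.79, 8.44, 8.15 and 9.19 in hyperoxia, against 7.72, 7.94, 8.36 and 7.28 in normoxia. The wild-type arrays read 8.79, 9.14, 8.52 and 7.92 in hyperoxia, against 7.08, 7.33, 7.89 and 7.90 in normoxia. The Fgf10+/- groups overlapped, and the wild-type groups were parted by 0.02. Muc5b rose by 1.04 in wild-type pups (2.06-fold, SE 0.31, adjusted p = 0.027). In Fgf10+/- pups the difference was 0.82 (SE 0.31, 95% interval 0.16 to 1.47, adjusted p = 0.068) and did not pass.

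The Muc5b call in wild-type pups was lost without replicate 1 (adjusted p = 0.0698), 2 (0.0863) or 3 (0.0517) of wild-type hyperoxia, without replicate 1 (0.0783) or 2 (0.0710) of wild-type normoxia, and against a minimum of 1.5-fold (1.0). With the replicate number as a block the wild-type call was lost as well (limma adjusted p = 0.0538). In Fgf10+/- pups the difference passed without replicate 3 of Fgf10+/- hyperoxia (0.0464), replicate 3 of Fgf10+/- normoxia (0.0384) or replicate 4 of wild-type hyperoxia (0.0493), and with a filter at the 50th percentile (0.0451).

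Agr2, a protein disulphide isomerase of the endoplasmic reticulum that mucin folding needs, did not pass in either genotype. Its log2 intensity in Fgf10+/- pups was 5.71, 5.53, 5.86 and 5.53 in hyperoxia, against 5.31, 5.05, 5.76 and 4.49 in normoxia. That of wild-type pups was 5.95, 6.93, 5.04 and 6.53 in hyperoxia, against 5.76, 5.51, 6.26 and 5.24 in normoxia. The groups overlapped in both genotypes, and the wild-type hyperoxia arrays had the widest spread. The difference was 0.50 in Fgf10+/- pups (SE 0.36, adjusted p = 0.361) and 0.42 in wild-type pups (SE 0.36, 95% interval -0.35 to 1.18, adjusted p = 0.487).

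**Figure D3:**
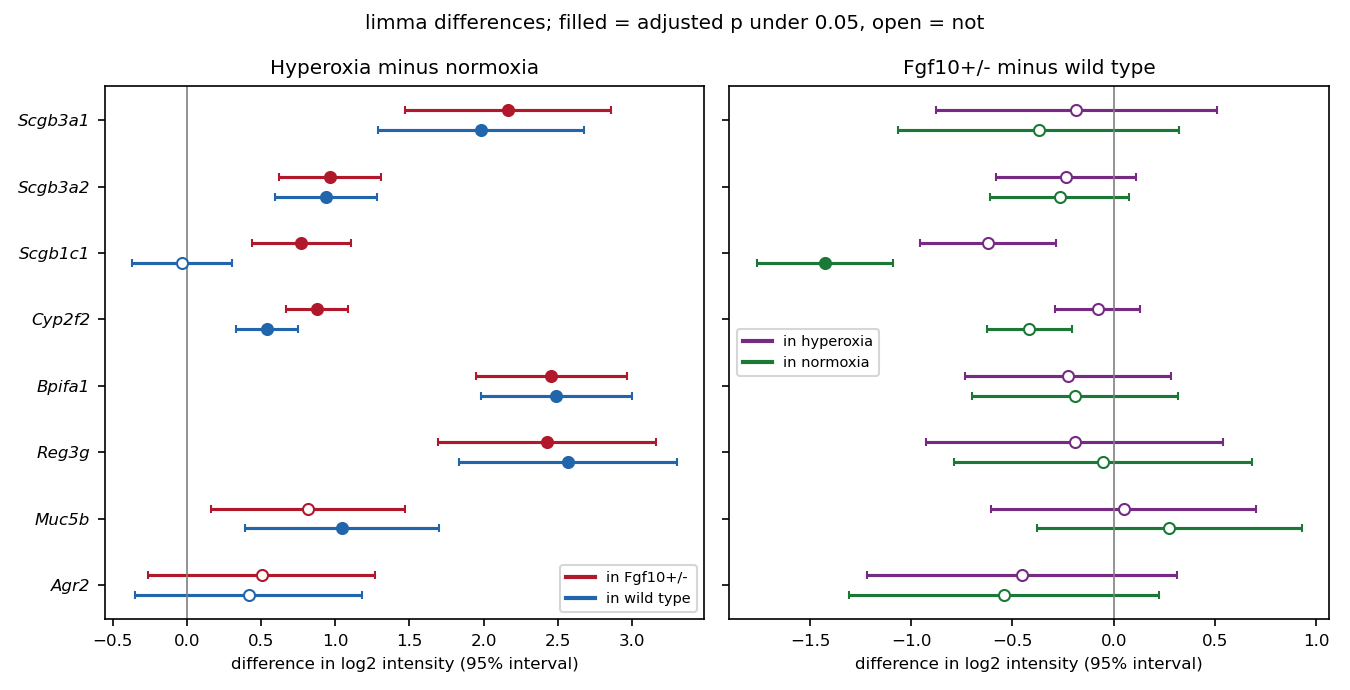
Differences in log2 intensity with 95% intervals from the limma fit for the 8 genes below the top of the scale, for hyperoxia minus normoxia (left, by genotype) and for Fgf10+/- minus wild type (right, by oxygen level); filled points passed an adjusted p under 0.05. In hyperoxia Bpifa1, Reg3g and Scgb3a1 lie farthest to the right in both genotypes, and Scgb1c1 in normoxia is the one filled point of the genotype comparison.

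The genotype comparison asked whether the lungs of Fgf10+/- pups differ from wild-type lungs at the same oxygen level. In normoxia 1 of the 9 genes, Scgb1c1, was lower in Fgf10+/- pups at an adjusted p under 0.05, as 0.605% of all genes were, and none was higher. Scgb1c1 averaged 6.98 ± 0.23 in Fgf10+/- normoxia and 8.40 ± 0.21 in wild-type normoxia (SD, n = 4 each). The difference was -1.43 (SE 0.16, 95% interval -1.76 to -1.09, adjusted p = 0.00108), which is 2.69-fold lower and the 26th largest fall of all genes in that comparison. The arrays of the 2 groups lay 1.02 apart. This call held without each array in turn, with adjusted p between 0.00138 and 0.00584. It did not hold in a fit to the 8 normoxia arrays alone (adjusted p = 0.0694), in which 0 genes of any kind were called, or against a minimum of 1.5-fold (0.489).

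In hyperoxia 0 of the 9 genes were called lower in Fgf10+/- pups, as 0.119% of all genes were. Scgb1c1 averaged 7.75 ± 0.29 in Fgf10+/- hyperoxia and 8.37 ± 0.10 in wild-type hyperoxia (SD, n = 4 each), a difference of -0.62 (SE 0.16, 95% interval -0.96 to -0.28, adjusted p = 0.144). It was the 1 gene of the 9 whose hyperoxia arrays were wholly lower in Fgf10+/- pups, as 2.85% of all genes were, and it passed under trended and robust moderation (adjusted p = 0.0394). Scgb1c1 thus had its highest levels in both wild-type groups, which did not differ beyond their spread, then in Fgf10+/- hyperoxia and its lowest in Fgf10+/- normoxia.

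Scgb1c1 lies on chromosome 7, as do Cyp2f2 and Muc5b. Of its 10 nearest tested neighbours in the RefSeq order, 5 on each side, 0 were called between the genotypes in normoxia, where 0.605% of all genes were called lower. The nearest pair, C330022C24Rik and Odf3, had differences of -0.32 (adjusted p = 0.774) and -0.14 (0.929). The neighbour with the smallest adjusted p was Sirt3, a mitochondrial deacetylase, at -0.50 (0.0559).

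Cyp2f2 was the other gene whose normoxia arrays did not overlap between the genotypes. It was lower in all 4 Fgf10+/- normoxia arrays, 14.07 to 14.42, than in the 4 wild-type normoxia arrays, 14.48 to 14.69, a pattern that 4.52% of all genes had. The difference of -0.42 (SE 0.10, 95% interval -0.62 to -0.21, adjusted p = 0.0679) did not pass. It passed without wild-type normoxia replicate 4, the array with cartilage and muscle signal (-0.46, adjusted p = 0.0446), and without Fgf10+/- normoxia replicate 3 (-0.49, 0.0404). Array weights (0.0303), a filter at the 50th percentile (0.0348) and trended, robust moderation (0.0015) also brought it past the threshold. In hyperoxia it was -0.08 (SE 0.10, 95% interval -0.29 to 0.13).

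For the remaining genes the genotype differences did not pass. Scgb3a1 was -0.18 in hyperoxia and -0.37 in normoxia (SE 0.32 each), Scgb3a2 was -0.24 and -0.27 (SE 0.16 each), and Agr2 was -0.45 and -0.54 (SE 0.36 each). In both oxygen levels 7 of the 8 genes below the top of the scale had a negative difference, and Muc5b was the exception. Their median was -0.21 in hyperoxia and -0.32 in normoxia, against -0.01 and 0.00 over all tested genes. Some other epithelial lists were about as low or lower. The 8 alveolar type 2 cell genes had medians of -0.22 in hyperoxia and -0.58 in normoxia. The 18 regulators of airway epithelium had -0.22 and -0.29. The 14 ciliated cell genes had medians of -0.31 in hyperoxia and -0.50 in normoxia. The 5 genes of epithelium in general had -0.32 and -0.45. Of the 14 ciliated and 5 general epithelium genes, Krt18, a keratin of simple epithelium, was the one called, at -0.65 in normoxia. Over all genes, 0.605% were called lower in normoxia and 0.119% in hyperoxia. Lists of alveolar type 1 (0.08 and -0.23), neuroendocrine (-0.08 and 0.01), basal (-0.12 and -0.15) and mucous cells (-0.04 and 0.04) were less low. Adjusted p-values of Scgb3a1, Scgb3a2, Bpifa1, Reg3g, Muc5b and Agr2 were between 0.538 and 0.979.

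Whether oxygen acted differently in the 2 genotypes was tested by the interaction, the difference in Fgf10+/- pups minus that in wild-type pups. It called 0 of the 9 genes and 0 of 20173 (0%) by limma, where 1335 genes had an unadjusted p under 0.05 and the smallest adjusted p was 0.467. Scgb1c1 had the largest interaction of the 9, 0.81 (SE 0.22, 95% interval 0.33 to 1.28, unadjusted p = 0.00269, adjusted p = 0.588). For Cyp2f2 it was 0.34 (SE 0.14, adjusted p = 0.734). The hyperoxia differences of Scgb1c1, 0.77 in Fgf10+/- pups and -0.04 in wild-type pups, were therefore not shown to differ over the whole table. The Fgf10+/- normoxia arrays, in which Scgb1c1 was lowest, enter the hyperoxia comparison of that genotype, the genotype comparison in normoxia and the interaction alike, so these results are not independent.

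Other genes of club and airway secretory cells rose as well. Of 16 tested genes of that list, which holds none of the 9, 13 rose and 0 fell in Fgf10+/- pups (median difference 0.92), where 13% of all genes rose. In wild-type pups 9 rose and 0 fell (median 0.86), where 10.3% of all genes rose. Aldh1a1, a retinaldehyde dehydrogenase, rose by 2.21 in Fgf10+/- pups and by 1.87 in wild-type pups. Gsta3, a glutathione transferase, rose by 2.21 and 1.83 in the same order. The selenium-binding protein Selenbp1 rose by 1.36 in Fgf10+/- pups and 0.85 in wild-type pups, and the flavin monooxygenase Fmo2 rose by 1.43 and 0.86. Cbr2, a carbonyl reductase, reached 15.97 and so also touched the top of the scale. Several of these enzymes are known to respond to oxidants in other tissues too, so the list does not mark club cells alone. None of the 16 was called between the genotypes, with medians of -0.14 in hyperoxia and -0.34 in normoxia.

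The genes of mucous cells and mucosal defence rose about as often as genes in general. Of 19 tested, 3 rose in Fgf10+/- pups (Agr3, Muc5ac and Ern2), beside 13% of all genes, and 2 rose in wild-type pups (Agr3 and Muc5ac), beside 10.3% of all genes. The median was 0.06 in Fgf10+/- pups and 0.04 in wild-type pups. Agr3, a relative of Agr2 found in ciliated cells, rose by 1.55 in Fgf10+/- pups and 1.43 in wild-type pups. Muc5ac, the inducible gel-forming mucin, rose by 1.08 and 1.23, with normoxia means of 5.18 in Fgf10+/- pups and 4.62 in wild-type pups, near the array median. Ern2, an endoplasmic reticulum stress sensor of mucous cells, had group means of 2.96 to 4.16, under the array median, so its call concerns a dim feature. Spdef, which drives mucous cell differentiation, differed by 0.06 in Fgf10+/- pups and -0.03 in wild-type pups. Lcn2, an iron-binding defence protein, had differences of 1.03 (adjusted p = 0.0856) and 1.13 (adjusted p = 0.0676) and did not pass.

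Among 18 regulators of airway epithelium, 5 rose and 1 fell in each genotype, with medians of 0.32 in Fgf10+/- pups and 0.34 in wild-type pups. Over all genes 13% rose and 10.7% fell in Fgf10+/- pups, and 10.3% rose and 8.74% fell in wild-type pups. Grhl2, a transcription factor of epithelial junctions, rose by 0.89 in Fgf10+/- pups and 0.90 in wild-type pups. Tfcp2l1, a relative of Grhl2, rose by 0.61 and 0.70. Foxa2, a fork-head factor of airway differentiation, rose by 0.62 in Fgf10+/- pups, while its difference in wild-type pups was 0.22 (adjusted p = 0.189). Notch1, a receptor of the pathway that favours secretory over ciliated fate, rose by 0.98 in wild-type pups, and its difference in Fgf10+/- pups was 0.27 (adjusted p = 0.354). The gene that fell in both was Notch2, by 0.52 in Fgf10+/- pups and 0.50 in wild-type pups.

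In normoxia 3 of the 18 regulators were lower in Fgf10+/- pups, where 0.605% of all genes were: Foxa2 (-0.64), Cebpa (-0.83) and Tfcp2l1 (-0.73). In hyperoxia 1 was, Tfcp2l1 (-0.81), where 0.119% of all genes were. Nkx2-1, the lung lineage factor known to act on secretoglobin promoters, differed by -0.55 in normoxia (SE 0.13, adjusted p = 0.0646). Foxa2, Cebpa and Nkx2-1 also serve alveolar type 2 cells, and 4 of 8 type 2 cell markers were lower in Fgf10+/- pups in normoxia (Napsa, Abca3, Sftpa1 and Slc34a2) and 3 of 8 in hyperoxia (Abca3, Lamp3 and Slc34a2), beside the same shares of all genes. Notch2, Cebpa, Nkx2-1, Foxj1, Spdef, Cbr2, Reg3a, Reg3b, Slc34a2, Lamp3 and the neighbours of Scgb1c1 were named after their values were seen.

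Markers of the neighbouring ciliated cells rose in both genotypes too. Of 14 tested, 10 rose and 0 fell in Fgf10+/- pups (median 0.80), where 13% of all genes rose. In wild-type pups 9 rose and 0 fell (median 0.82), where 10.3% of all genes rose. Cfap52 and Ccdc113, of the ciliary axoneme and its base, rose by 2.09 and 1.56 in Fgf10+/- pups and by 1.66 and 1.21 in wild-type pups. The tektins Tekt1 and Tekt4 rose by 1.39 and 1.43 in Fgf10+/- pups and by 1.27 and 1.31 in wild-type pups. The mean of the list was 8.27 to 8.89 in Fgf10+/- hyperoxia, against 7.50 to 8.0 in Fgf10+/- normoxia, and 8.82 to 9.11 in wild-type hyperoxia, against 7.88 to 8.32 in wild-type normoxia. The mean of the 16 other secretory genes was 11.21 to 11.65 in Fgf10+/- hyperoxia, against 10.28 to 10.64 in Fgf10+/- normoxia, and 11.42 to 11.73 in wild-type hyperoxia, against 10.58 to 10.79 in wild-type normoxia. Foxj1, the defining transcription factor of ciliated cells, differed by 0.49 in Fgf10+/- pups (adjusted p = 0.117) and by 0.38 in wild-type pups (0.252) and did not pass. Both lists separated hyperoxia from normoxia in each genotype. The means of the regulator, general epithelium, alveolar type 1 and neuroendocrine lists did so too, so the separation was not particular to secretory and ciliated genes. The part of airway tissue content in the changes of the 9 genes was not tested.

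Of 5 genes of epithelium in general, Krt8 and Krt18 rose in both genotypes, and the median was 0.31 in Fgf10+/- pups and 0.28 in wild-type pups. Epcam went the other way, at -0.35 in Fgf10+/- pups and -0.46 in wild-type pups (limma adjusted p = 0.173 and 0.0799). Cldn7 was at 0.31 and 0.28, and neither gene passed. Of the other airway cells, Calca, the neuropeptide gene of neuroendocrine cells, was the 1 of 7 markers that rose, by 3.69 in Fgf10+/- pups and 2.74 in wild-type pups. The basal cell keratin Krt15 rose by 2.25 in Fgf10+/- pups, and the basal cell factor Trp63 fell by 0.61 there. The rest of the 6 basal cell markers did not pass in Fgf10+/- pups, and in wild-type pups none of the 6 did. Among them, Krt5 and Krt14 were dim, with group means of 3.88 to 5.01, near the array median. Alveolar type 1 markers rose in 5 of 6 cases in Fgf10+/- pups and in 4 of 6 in wild-type pups, with medians of 0.60 and 0.44, and type 2 markers rose in 4 of 8 and 1 of 8, with medians of 0.38 and 0.11. Of all genes, 13% rose in Fgf10+/- pups and 10.3% in wild-type pups. The 1 of 7 neuroendocrine markers in each genotype and the 1 of 8 type 2 markers in wild-type pups stand close to these shares. The neuroendocrine medians were 0.51 in Fgf10+/- pups and 0.74 in wild-type pups. Of the uncalled neuroendocrine markers, Chga and Pcsk1 had normoxia means of 3.71 to 4.31, under the array median. The 6 cartilage, 10 skeletal muscle and 6 brown fat genes gave 1 rise in Fgf10+/- pups, in brown fat. In wild-type pups they gave 1 fall, in skeletal muscle, where 8.74% of all genes fell. That fall is measured against the normoxia group whose replicate 4 had high muscle signal, and it was not recomputed without that array.

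**Figure D4:**
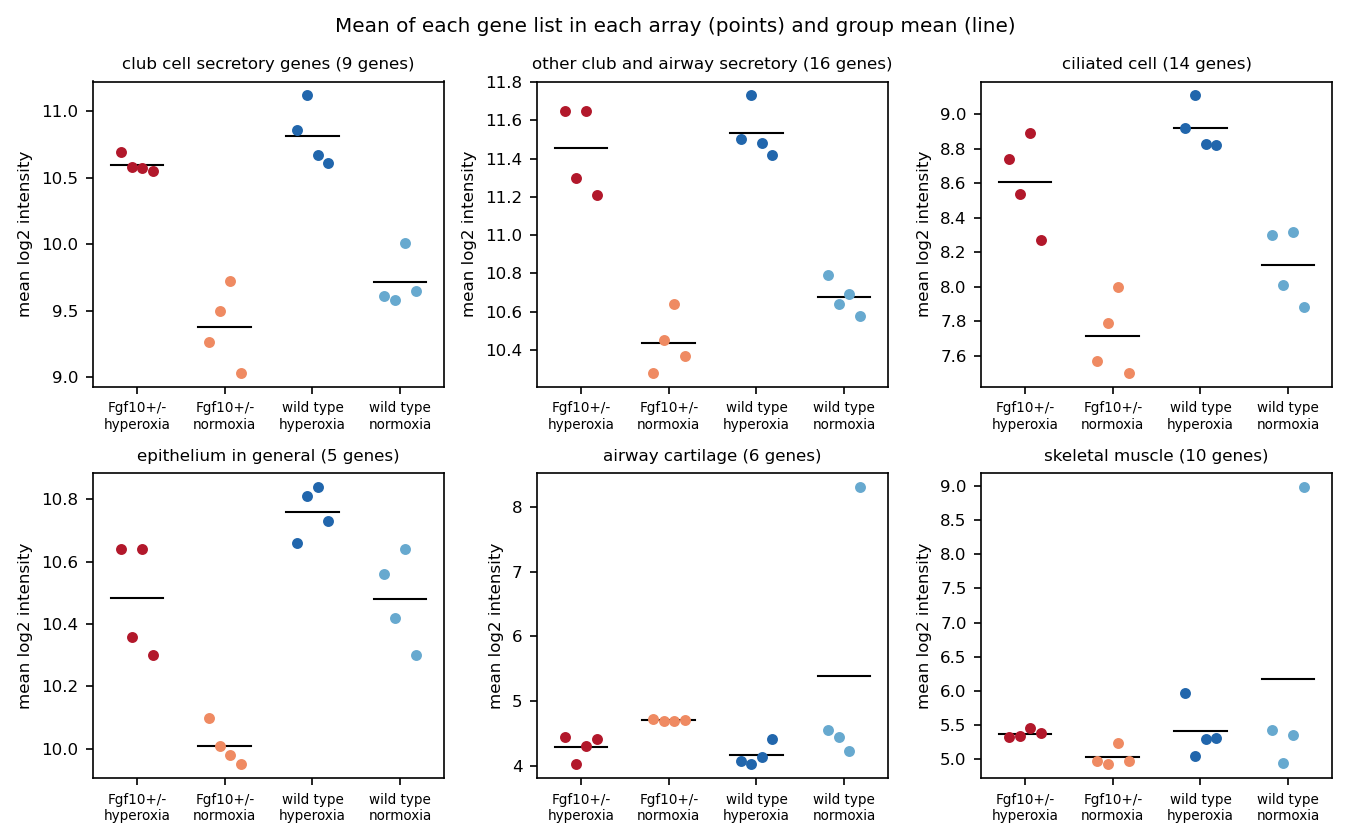
Mean log2 intensity of 6 gene lists (vertical axes, each list on its own scale) in every array, by group; points are arrays and lines are group means. The secretory, ciliated and general epithelium lists are higher in the hyperoxia arrays of each genotype. Wild-type normoxia replicate 4 stands at 8.31 in airway cartilage and 8.99 in skeletal muscle.

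Within the groups, the array-to-array deviations described how the genes moved apart from the treatment. They are correlations of deviations from the group means over the same 16 arrays, which share each array's tissue sample and scaling, and are given as description only. Of the 28 pairs of the 8 genes other than Scgb1a1, 24 had a positive Pearson correlation, with a median of 0.32. Scgb3a2 and Reg3g varied most closely together (r = 0.82, n = 16 arrays), then Scgb3a1 and Muc5b (0.75) and Scgb3a2 and Cyp2f2 (0.67), while Scgb1c1 and Bpifa1 ran opposite (-0.49). With the mean of the ciliated list, r was 0.93 for Scgb3a2, 0.84 for Reg3g and 0.75 for Cyp2f2, but 0.25 for Scgb3a1, 0.09 for Muc5b and 0.01 for Bpifa1. The correlations thus differed widely from pair to pair, and whether the 8 genes vary together was not tested.

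Among all tested genes, the 2 most alike to Scgb3a2 over these 16 deviations were Rps13-ps5 (r = 0.94) and the ciliary gene Ccdc113 (0.93). For Reg3g they were Ccdc91 (0.91) and the ciliary gene Cfap52 (0.89). For Bpifa1 they were Osmr, the oncostatin M receptor (0.93), and Lrrc45 (0.88). Muc5b was closest to Wdr89 (0.92) and Synpo2l (0.91), Scgb3a1 to Ppm1n (0.88) and Synpo2l (0.85), and Cyp2f2 to Keg1 (0.90) and Tmem134 (0.89). Scgb1c1 was closest to C2cd5 (0.88) and Tsnax (0.87), and Agr2 to Rpl36a (0.89) and Cd83 (0.86). Scgb1a1, at the ceiling, was closest to Cab39 (0.88) and Inpp5a (0.85). These are the highest values over all tested genes and so are high by selection.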

How the data were processed

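The authors deposited log2 intensities per array feature, and these were used without further normalization. Per the labels, lung RNA was amplified and Cy3-labelled for one-colour arrays. How the intensities were normalized or background-corrected, and any array batch, were not stated. Array medians were equal to within 0.00068. Of 62976 features, 31465 name 1 gene, and names were updated through RefSeq (GRCm38.p6) for 29050 by accession, 2061 by current symbol and 349 by synonym, while 5 kept the platform name. Features above the 25th percentile of their array in at least 4 of 16 arrays were kept, and the feature with the highest mean stood for a gene, which left 20173 genes. A linear model with a mean per group over all 16 arrays was fitted with limma 3.58.1 in R 4.3.3 with empirical Bayes moderation. Benjamini-Hochberg adjustment ran over all genes of a contrast, and an adjusted p under 0.05 was a call. The procedure was tested on simulated data.

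The genes, marker lists, motifs and alternatives were chosen with earlier results of these data known. Named are the 9 genes, up to 4 genes of each list with the smallest p in either hyperoxia contrast, and the 2 genes most alike to each of the 9; any further gene is marked as picked with its values in view. Alternatives, changed 1 at a time, were no filter or one at the 50th percentile, averaging all features per gene, a common 75th percentile for all arrays, repeated quantile normalization, trended and robust moderation, array weights, only the groups compared, the replicate number as a block, limma's treat at a minimum of 1.5-fold, and each array left out in turn.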

Additional observations from a re-analysis of the deposited data

Results flagged for a closer look

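Among 36 groups of 4 values (the 9 genes in 4 groups), 1 array stood far from the rest of its group: Scgb1a1 in wild-type hyperoxia replicate 4 was 15.89, where the nearest other array of the group was 15.95 and the gap made up the whole range of the group (ratio 1.0, past Dixon's 95% critical value). Chance alone would mark about 1 in 20 such groups, and this feature is at the top of the scale in every array.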

How the results depend on the processing

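Of 1032 refits of single genes (8 genes, Scgb1a1 left out), 979 kept their direction and side of the threshold, 14 lost a call, 10 gained one and 29 changed sign, and no sign change concerned a called difference. Against a minimum of 1.5-fold (treat), members higher in hyperoxia were 3 in Fgf10+/- pups and 3 in wild-type pups (Scgb3a1, Bpifa1 and Reg3g), against 6 and 6. Genes higher in hyperoxia were then 204 in Fgf10+/- and 67 in wild-type pups (2629 and 2082 before), genes lower were 173 and 160 (2161 and 1764 before), and no gene was called between genotypes. Between genotypes in hyperoxia, 59 genes higher and 24 lower became 0 and 0 in a fit of only the groups compared, 27 and 10 with the replicate block, and 154 and 69 with trended, robust moderation. With the 50th percentile filter 93 were higher. In normoxia, 23 genes higher and 122 lower became 0 and 0 with only the groups compared, 101 and 332 with trended, robust moderation, 59 and 231 with array weights, 56 and 227 with the 50th percentile filter, and 14 and 80 with the mean of features. Members lower in Fgf10+/- normoxia were 2 with array weights, with the 50th percentile filter and with trended, robust moderation, and 0 with only the groups compared or treat. In hyperoxia, members lower were 1 with trended, robust moderation. The cause of these shifts was not tested, and fits of only 8 arrays have fewer degrees of freedom.

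Leaving out 1 array gave 7 to 68 genes higher and 6 to 22 lower between genotypes in hyperoxia, and 5 to 81 higher and 38 to 211 lower in normoxia, with 81 and 211 reached without wild-type normoxia replicate 4. Members lower in normoxia were 1 to 2. The interaction gave 0 to 1 genes higher, the 1 without wild-type hyperoxia replicate 2. Uncalled differences near 0 changed sign: Muc5b between genotypes in hyperoxia with array weights (-0.0143) and Reg3g in the interaction with array weights (0.0041). With 1 array left out, the interaction was -0.0606 to 0.41 for Scgb3a1, -0.067 to 0.15 for Scgb3a2, -0.23 to 0.18 for Bpifa1, -0.46 to 0.16 for Reg3g and -0.27 to 0.36 for Agr2. Between genotypes in hyperoxia, Reg3g was -0.36 to 0.0175 and Muc5b -0.18 to 0.23, in normoxia Reg3g was -0.35 to 0.27, and Scgb1c1 in wild-type hyperoxia was -0.0891 to 0.0677.

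Whether replicate numbers pair the arrays was not settled. Same-number correlations of the deviations were small, -0.03 to 0.09. Yet 8 of 16 arrays correlated best with an array of their own number, although same-number arrays were the minority of those compared. With the number as a block, Muc5b in wild-type pups was no longer called (1.04, adjusted p = 0.0538), and no other call of the 9 genes changed. The ceiling of the scale limits Scgb1a1, nearness to the top of the scale Cyp2f2, and dim normoxia signal Bpifa1.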
